A study of Arabidopsis thaliana with 8 samples.

Results

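The JASMONATE ZIM-DOMAIN (JAZ) genes encode the repressors that hold jasmonate responses off. Of this family, 10 loci were taken by their locus identifiers from the 27416 gene models measured in seedlings of Arabidopsis thaliana: JAZ1 (AT1G19180), JAZ2 (AT1G74950), JAZ3 (AT3G17860), JAZ5 (AT1G17380), JAZ6 (AT1G72450), JAZ7 (AT2G34600), JAZ8 (AT1G30135), JAZ9 (AT1G70700), JAZ10 (AT5G13220) and JAZ12 (AT5G20900). RNA sequencing had been done on 8 libraries of whole Col-0 seedlings, 2 in each of 4 groups. A phyA phyB double mutant (phyAB red), a phyB mutant (phyB red) and wild type (WT red) grew in darkness for 5 days and then stood for 1 h under 50 µmol of red light per square metre and second. Wild type kept in darkness (WT dark) was the unlit group. All seeds had been kept at 4 °C for 3 days and given 12 h of white light before the dark period, on medium with 1% sucrose. Which alleles the mutants carry is not given in the labels, mutant seedlings kept in darkness were not analysed here, and the mutants can therefore be set only against wild type in red light, against each other, or against dark wild type. The labels speak of replicates but not of separate cultures. The p-values set differences between groups against the spread between libraries of a group, estimated over all 4 groups, and that spread may be only technical.

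In the jasmonate pathway, JAZ proteins bind transcription factors such as MYC2 and bring in the adaptor NINJA and the co-repressor TOPLESS, which silence the target genes. The hormone jasmonoyl-isoleucine joins JAZ proteins to the F-box receptor COI1, whose ubiquitin ligase marks them for degradation and frees the factors. Many JAZ genes are themselves targets of MYC2, so the repressors are remade after each pulse of hormone. Phytochrome A and phytochrome B are among the photoreceptors that sense red light, and loss of phyB is known to weaken jasmonate responses in adult Arabidopsis leaves.

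The 300 bases upstream of 4 members are shown because these form the most alike pairs described later, JAZ9 with JAZ12 and JAZ3 with JAZ7. They were read from the RefSeq genome TAIR10.1 up to the base before each RefSeq gene start, all on the plus strand: JAZ9 at chr1:26654229-26654528, JAZ12 at chr5:7090404-7090703, JAZ3 at chr3:6119407-6119706 and JAZ7 at chr2:14572730-14573029. Capitals mark 3 motifs searched on both strands, the G-box CACGTG that MYC2 and phytochrome-interacting factors can bind, the PBE-box CACATG, another string those factors can bind, and the T/G-box AACGTG. The strings differ, so a place counts for 1 motif, and the G-box, which reads the same on both strands, was counted once.
JAZ9: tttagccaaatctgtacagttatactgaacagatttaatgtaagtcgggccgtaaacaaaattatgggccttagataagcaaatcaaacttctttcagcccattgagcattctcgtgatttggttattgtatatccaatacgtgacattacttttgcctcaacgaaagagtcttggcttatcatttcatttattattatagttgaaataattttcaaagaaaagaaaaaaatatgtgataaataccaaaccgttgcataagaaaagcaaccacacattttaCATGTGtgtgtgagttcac
JAZ12: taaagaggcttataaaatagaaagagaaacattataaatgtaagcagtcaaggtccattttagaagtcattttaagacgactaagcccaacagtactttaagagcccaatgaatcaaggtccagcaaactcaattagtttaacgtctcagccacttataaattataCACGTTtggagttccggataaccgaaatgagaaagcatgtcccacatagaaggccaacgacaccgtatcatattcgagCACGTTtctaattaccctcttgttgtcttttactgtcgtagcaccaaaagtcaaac
JAZ3: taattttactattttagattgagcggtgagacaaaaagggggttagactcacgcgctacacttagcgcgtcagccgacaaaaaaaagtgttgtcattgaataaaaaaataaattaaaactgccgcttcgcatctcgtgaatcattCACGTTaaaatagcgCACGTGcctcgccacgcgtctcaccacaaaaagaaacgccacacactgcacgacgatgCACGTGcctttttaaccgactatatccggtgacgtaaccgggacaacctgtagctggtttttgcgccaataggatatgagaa
JAZ7: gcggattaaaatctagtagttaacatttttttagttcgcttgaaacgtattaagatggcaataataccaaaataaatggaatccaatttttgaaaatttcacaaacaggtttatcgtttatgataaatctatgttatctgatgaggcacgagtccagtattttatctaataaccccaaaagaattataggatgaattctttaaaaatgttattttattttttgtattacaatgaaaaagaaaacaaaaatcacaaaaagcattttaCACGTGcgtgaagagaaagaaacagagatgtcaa
The JAZ9 window held 1 PBE-box, 19 to 14 bases before the gene start, and the JAZ12 window held 2 T/G-boxes, 56 to 51 and 134 to 129 bases before it. The JAZ3 window held 2 G-boxes, 82 to 77 and 140 to 135 bases before the start, with 1 T/G-box at 155 to 150. JAZ7 had its G-box 34 to 29 bases before the start. Over all 10 members a G-box was found in 4 windows (JAZ2, JAZ3, JAZ7 and JAZ8), against 7.09% of 27438 windows of the same length. A T/G-box was found in 4 windows (JAZ3, JAZ5, JAZ6 and JAZ12), against 8.71% of all windows, and a PBE-box in 2 (JAZ9 and JAZ10), against 13.1%. JAZ1 held none of the 3 letter strings. These are matches of letters, not binding sites, and so few windows were not tested. The windows follow RefSeq gene starts, which may differ from those of the authors' models.

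The targeted genes were looked at first. PHYA, the phytochrome A gene, had 123.9 and 123.2 CPM (reads scaled to a common library size after TMM normalisation, which sets the bulk of genes equal between libraries) in phyAB red, 703.0 and 702.5 CPM in phyB red, 463.1 and 470.5 CPM in WT red and 834.2 and 827.9 CPM in WT dark. It was 3.78-fold lower in phyAB red than in WT red and 1.51-fold higher in phyB red than in WT red. PHYB had 52.9 and 50.4 CPM in phyAB red, 62.3 and 64.3 CPM in phyB red, 96.0 and 95.2 CPM in WT red and 80.7 and 81.3 CPM in WT dark. Both labelled mutants were thus lower than WT red in the genes they are named for, though none of these levels was near 0. Depth ran from 15926547 to 22116924 reads per library, and 3 reads, the limit that a count of 0 allows, were worth 0.136 to 0.188 CPM. Replicates lay close to each other. Their squared differences were 1.35 to 1.48 times those of read counting alone, and the fitted variation between replicates was 1.59%. The standard errors below rest on that small spread. Counts of called members and pathway genes are therefore also given for an assumed variation of 10% (a coefficient of variation of 0.1). It was set on the sum of the 2 libraries of a group, not on each library. Replicate variation at 10% and 10% variation mean this setting below. A summed marker list of 11 touch and wound genes lay at 507.8 and 516.8 CPM in phyAB red. The other 6 libraries lay at 362.4 to 384.9 CPM, and no gene of the list was at 0. Calls among the other groups went both ways. In phyB red relative to WT red 3 of the 11 were called higher and 6 lower, against 13.1% and 14.1% of all tested genes. Relative to WT dark, 3 were higher and 6 lower in phyB red, against 27.5% and 27.1%. In WT red 2 were higher and 6 lower than in WT dark, against 24.1% and 22.7%. At 10% variation these counts were 0 and 1, 1 and 6, and 2 and 0. Of all 20716 tested genes 313 and 312, 2761 and 1608, and 2377 and 1102 were called. A summed list of 3 seed storage genes lay at 50.8 and 51.4 CPM in phyAB red, against 0.436 to 1.34 CPM elsewhere, where 1 gene was at 0 in phyB red replicate 1 alone. Root markers summed to 95.8 to 116.6 CPM in all 8 libraries, and none of the 9 was at 0. In phyB red relative to WT red 0 were called higher and 2 lower (lowest log2 -1.96), against 13.1% and 14.1% of all tested genes. In phyAB red relative to phyB red 3 were higher and 0 lower (highest 2.76), against 26.1% and 24.1%. Relative to WT dark, 1 was higher and 3 lower in phyB red (lowest -3.30), against 27.5% and 27.1%. At 10% variation these counts were 0 and 1, 2 and 0, and 0 and 1. Of all tested genes 313 and 312, 2050 and 1906, and 2761 and 1608 were called. The part of these lists in the JAZ values of any group was not tested.

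The summed JAZ levels of the 4 groups differed little in size, and the members' shares of them differed more. Per length, as the authors' deposited RPKM (reads per model length and per library total), the 10 members summed to 171.5 ± 0.424 RPKM in phyAB red, 169.4 ± 3.04 in phyB red, 172.3 ± 1.202 in WT red and 173.8 ± 3.18 in WT dark (mean ± SD, n = 2 each). As CPM, which carry the TMM scaling that RPKM lack, the sum ran from 199.3 to 205.0 in the 4 mutant libraries and from 208.9 to 213.9 in the 4 wild-type libraries, so the genotypes did not overlap. The RPKM sums of the mutant libraries, 167.3 to 171.8, overlapped those of the wild-type libraries, 171.5 to 176.1. JAZ12, a repressor known to interact with the ubiquitin ligase KEG, was the most abundant member in every group. It made up 35.2% of the sum in phyAB red, 40.0% in phyB red, 40.6% in WT red and 37.1% in WT dark. JAZ1, one of the first repressors found as a COI1 target, made up 22.7% in phyAB red, 12.8% in phyB red, 15.3% in WT red and 14.8% in WT dark. JAZ9, a repressor known to bind DELLA proteins, moved most in the order of RPKM levels. It stood at rank 6 in phyAB red with 9.98 RPKM, rank 2 in phyB red with 26.5 RPKM, rank 3 in WT red with 22.6 RPKM and rank 5 in WT dark with 14.9 RPKM. JAZ10, JAZ5 and JAZ8 were the lowest 3 in phyAB red, WT red and WT dark, and in phyB red JAZ10 stood just above JAZ7. Neighbours in the RPKM order did not overlap between libraries, except JAZ2 with JAZ1 and JAZ3 with JAZ6, both in phyB red. In a whole-seedling library, fewer cells that express a gene and less RNA per cell cannot be told apart.

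**Figure D1:**
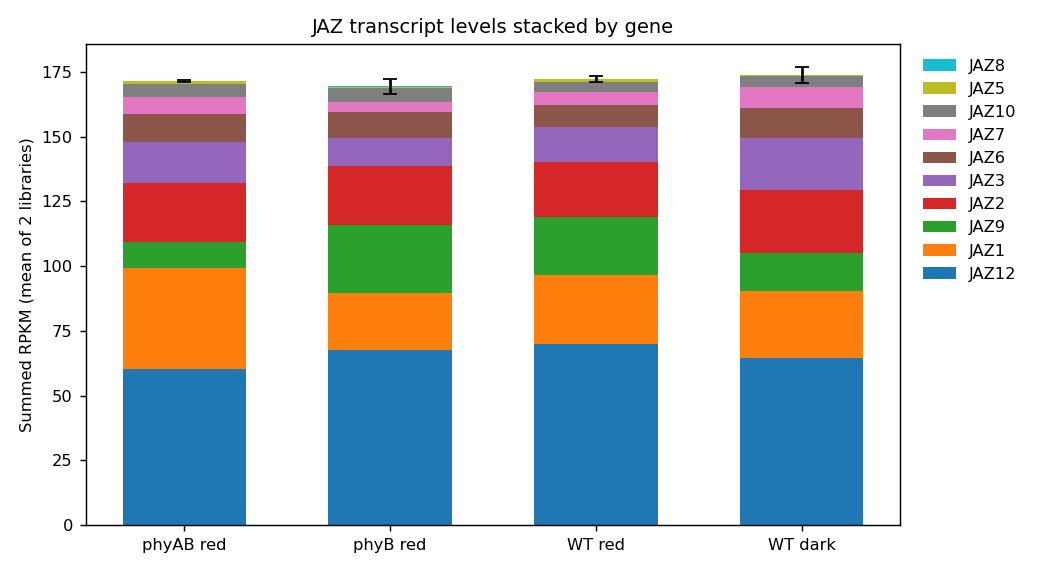
Mean RPKM of the 10 JAZ genes stacked by gene in each group, with the SD of the sum over 2 libraries as the error bar. The sums lie between 169.4 and 173.8 RPKM, while the JAZ1 and JAZ9 segments change in opposite directions between phyAB red and the other groups.

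Of all members JAZ9 had the widest range of group means, 1.42 log2 units. It had 12.2 and 12.2 CPM in phyAB red, 32.7 and 33.0 CPM in phyB red, 28.9 and 28.8 CPM in WT red and 18.9 and 18.6 CPM in WT dark. The 4 groups did not overlap, and phyAB red was the lowest group, below dark wild type as well. JAZ12 had 62.8 and 65.0 CPM in phyAB red, 71.8 and 73.7 CPM in phyB red, 77.9 and 76.9 CPM in WT red and 70.5 and 69.5 CPM in WT dark. It too was lowest in phyAB red, within a span of 0.277 log2 units. JAZ1 showed another order. It had 49.7 and 51.7 CPM in phyAB red, 28.5 and 29.0 CPM in phyB red, 35.6 and 36.3 CPM in WT red and 33.9 and 34.9 CPM in WT dark, so that phyAB red stood above and phyB red below both wild-type groups.

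JAZ3, the repressor whose truncated form in the mutant jai3-1 blocks jasmonate responses, was highest in darkness. It had 25.7 and 23.2 CPM in phyAB red, 18.1 and 15.8 CPM in phyB red, 20.3 and 24.1 CPM in WT red and 32.8 and 31.5 CPM in WT dark. The phyAB red and WT red libraries overlapped, and both phyB red libraries lay below all others. JAZ7, a member that carries an EAR motif for direct binding of TOPLESS, had 4.02 and 4.71 CPM in phyAB red, 2.43 and 2.92 CPM in phyB red, 3.42 and 3.70 CPM in WT red and 5.71 and 5.10 CPM in WT dark. Its groups followed the order of JAZ3, with dark highest and phyB red lowest. JAZ5, another EAR-motif member, was near the limit of this depth, with 9 to 30 reads per library. It had 1.36 and 1.00 CPM in phyAB red, 0.561 and 0.629 CPM in phyB red, 1.24 and 1.82 CPM in WT red and 0.751 and 0.537 CPM in WT dark.

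JAZ2, a repressor known from stomatal guard cells, was the flattest member, with a span of 0.17 log2 units. It had 29.4 and 27.8 CPM in phyAB red, 27.9 and 29.6 CPM in phyB red, 27.8 and 27.5 CPM in WT red and 31.1 and 31.1 CPM in WT dark. JAZ6, the close relative of JAZ5, had 14.3 and 13.0 CPM in phyAB red, 11.7 and 13.7 CPM in phyB red, 11.1 and 10.3 CPM in WT red and 15.8 and 13.5 CPM in WT dark. JAZ6 was lowest in WT red, and its other 3 groups overlapped. JAZ10, whose splice forms are known to resist hormone-driven degradation, had 5.51 and 4.42 CPM in phyAB red, 5.42 and 5.35 CPM in phyB red, 3.94 and 3.95 CPM in WT red and 4.51 and 4.24 CPM in WT dark. Each locus was counted as 1 model, so the JAZ10 splice forms were not separated. JAZ8, a repressor with a divergent degron that binds COI1 poorly, had 4 reads in all 8 libraries together and never more than 1 in a library. That is under the 3-read limit, JAZ8 was not tested, and no difference in it was detectable at this depth. JAZ12 shares its locus with AT5G20910 on the opposite strand, which had 249 to 422 reads per library, and with a non-coding gene there, AT5G03235. JAZ10 overlaps the non-coding gene AT5G02045. Whether the authors counted reads by strand is not stated in the labels, so reads of these partners cannot be told apart.

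**Figure D2:**
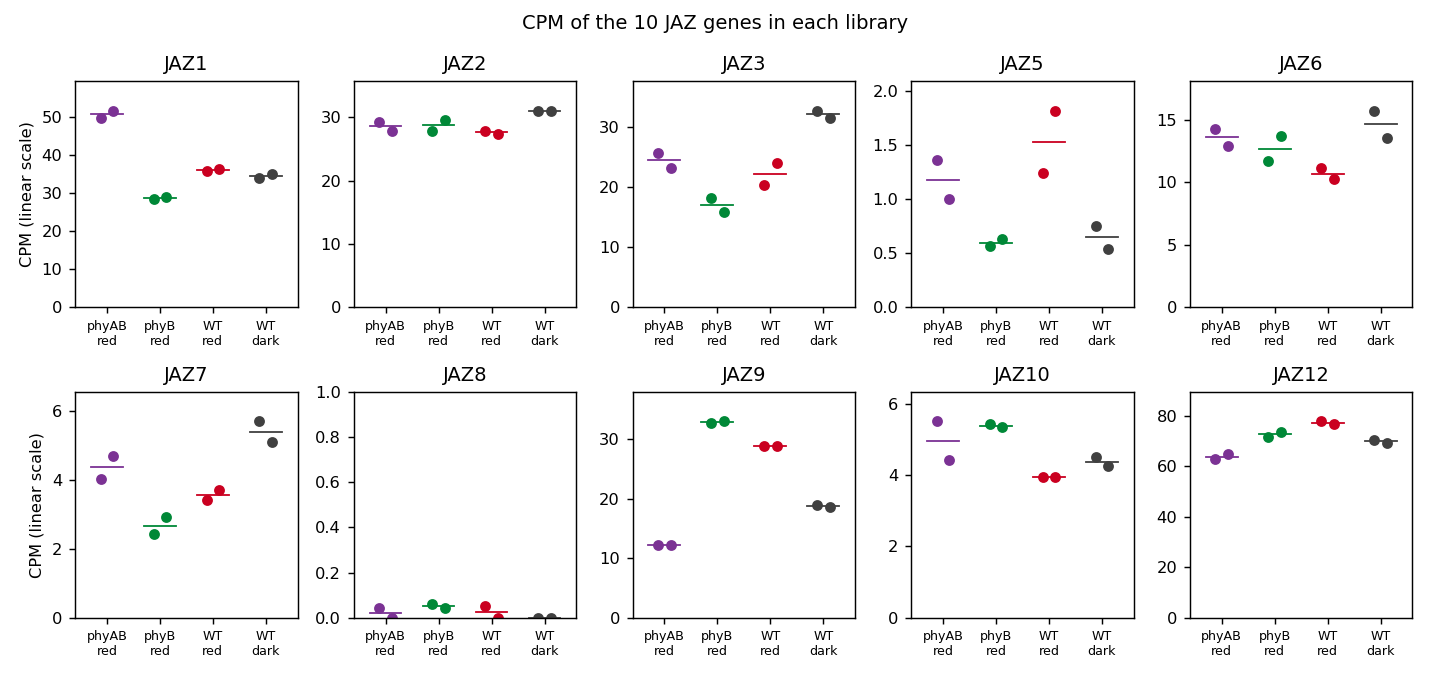
CPM of each JAZ gene on a linear axis from 0, with 1 point per library and a line at the mean of the 2 libraries of a group. JAZ9 is lowest in phyAB red at 12.2 CPM in both libraries, JAZ1 is highest there at 49.7 and 51.7 CPM, and JAZ8 is near 0 throughout.

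The comparison of WT red with WT dark asks what 1 h of red light did to the repressors in wild type, and they moved in both directions. JAZ9 rose 1.54-fold (log2 change 0.62 ± 0.081 SE, adjusted p = 2.74e-11, edgeR quasi-likelihood test), JAZ5 rose 2.32-fold (1.21 ± 0.404, adjusted p = 0.00853) and JAZ12 rose 1.11-fold (0.15 ± 0.046, adjusted p = 0.00511). JAZ3 fell 1.46-fold (-0.54 ± 0.080, adjusted p = 2.47e-09), JAZ7 fell 1.52-fold (-0.61 ± 0.192, adjusted p = 0.00518), JAZ6 fell 1.37-fold (-0.45 ± 0.114, adjusted p = 0.000417) and JAZ2 fell 1.12-fold (-0.17 ± 0.073, adjusted p = 0.0460). JAZ1 had a log2 change of 0.06, with a 95% interval of -0.07 to 0.19, and JAZ10 one of -0.15, with an interval of -0.53 to 0.23. In all, 7 of the 9 tested members were called, 3 higher and 4 lower, where 46.8% of all 20716 tested genes were called, 24.1% higher and 22.7% lower. JAZ5 alone was both called and changed at least 2-fold, as were 9.74% of all tested genes. The median over the 9 was -0.15, against 0.00 over all tested genes. With replicate variation set at 10%, JAZ5 and JAZ9 were called, both higher, where 2377 of all 20716 tested genes were higher and 1102 lower. DESeq2 did not call JAZ2 (adjusted p = 0.128), JAZ5 (0.0623) or JAZ12 (0.0749), JAZ2 was lost without the filter on low counts (0.0588), and JAZ12 under upper-quartile scaling (0.0988). Calls were also lost in fits that left out 1 library. JAZ2 had an adjusted p of 0.0533 without WT dark replicate 1, 0.125 without WT red replicate 1 and 0.155 without WT red replicate 2. JAZ12 had 0.0774 without WT dark replicate 1, 0.161 without WT dark replicate 2 and 0.0550 without WT red replicate 1. JAZ5 had 0.106 without WT dark replicate 2 and 0.140 without WT red replicate 2, and JAZ7 had 0.0661 without WT red replicate 1.

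The comparison of phyB red with WT red asks which levels in red light depend on phyB. JAZ1, JAZ3 and JAZ5 were lower in phyB red and JAZ9 was slightly higher. JAZ1 fell 1.25-fold (log2 change -0.32 ± 0.068 SE, adjusted p = 5.66e-05, edgeR quasi-likelihood test), JAZ3 fell 1.31-fold (-0.39 ± 0.090, adjusted p = 0.000205) and JAZ5 fell 2.50-fold (-1.32 ± 0.412, adjusted p = 0.00858). JAZ9 rose 1.14-fold (0.19 ± 0.074, adjusted p = 0.0470). JAZ10 had a log2 difference of 0.45 with an interval of 0.08 to 0.81 and missed the threshold after adjustment (adjusted p = 0.0589), as did JAZ6 at 0.26 (adjusted p = 0.0927) and JAZ7 at -0.39 (adjusted p = 0.193). JAZ2 and JAZ12 differed by 0.06 and -0.09 and were not called. The 4 calls among 9 members, 1 higher and 3 lower, stand against 27.2% of all tested genes, 13.1% higher and 14.1% lower, and the members' median was -0.09. JAZ5 was the member called with a change of at least 2-fold, against 2.17% of all tested genes. With replicate variation at 10%, JAZ5 was the 1 member called, where 625 of all 20716 tested genes were called. DESeq2 did not call JAZ5 (adjusted p = 0.0705) or JAZ9 (0.195), and JAZ9 was lost without the filter on low counts (0.0566). JAZ6 was called without phyB red replicate 1 (0.0423). JAZ9 was also lost without any 1 of the 4 libraries (adjusted p 0.110 to 0.188). JAZ3 was lost without WT red replicate 2 (adjusted p = 0.0534) or phyB red replicate 2 (0.0575), and JAZ5 without WT red replicate 2 (0.154), phyB red replicate 1 (0.0508) or phyB red replicate 2 (0.0555).

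With phyA and phyB both mutated, JAZ9 showed the strongest change of any member against wild type in red light. JAZ9 fell 2.37-fold in phyAB red relative to WT red (log2 change -1.24 ± 0.088 SE, adjusted p = 1.6e-26, edgeR quasi-likelihood test), and JAZ12 fell 1.21-fold (-0.28 ± 0.047, adjusted p = 1.11e-07). JAZ1 rose 1.41-fold (0.49 ± 0.061, adjusted p = 4.76e-12) and JAZ6 rose 1.28-fold (0.35 ± 0.115, adjusted p = 0.00776). JAZ3, JAZ7 and JAZ10 had log2 differences of 0.15, 0.29 and 0.35 that were not called, and those of JAZ2 and JAZ5 were 0.05 and -0.33. The 4 calls among 9 members, 2 in each direction, stand against 45.0% of all tested genes, 22.3% higher and 22.7% lower, and the members' median was 0.15. JAZ9 was the member called with a change of at least 2-fold, against 6.99% of all tested genes. With replicate variation at 10%, JAZ9 was the 1 member called, where 2740 of all 20716 tested genes were called. JAZ6 was not called by DESeq2 (adjusted p = 0.0670) and was lost without WT red replicate 2 (0.0783) or phyAB red replicate 1 (0.136). JAZ3 was called without WT red replicate 2, at a log2 difference of 0.27 (0.0259). The touch and wound sum was higher in phyAB red here as well, and its part in these differences was not tested.

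The comparison of phyAB red with phyB red sets the double mutant against the phyB mutant. Whether both lines carry the same phyB allele is not given in the labels. PHYB itself was called lower in phyAB red than in phyB red (log2 change -0.29), a call lost with replicate variation at 10%. The seed storage sum and the touch and wound sum were higher in phyAB red. The part of these differences in the JAZ values was not tested. JAZ9 fell 2.70-fold in phyAB red relative to phyB red (log2 change -1.43 ± 0.085 SE, adjusted p = 7.05e-33, edgeR quasi-likelihood test) and JAZ12 fell 1.14-fold (-0.19 ± 0.046, adjusted p = 0.000210). Rises were seen in JAZ1, 1.76-fold (0.81 ± 0.063, adjusted p = 7.43e-24), JAZ3, 1.46-fold (0.55 ± 0.087, adjusted p = 2.31e-08), JAZ7, 1.60-fold (0.68 ± 0.207, adjusted p = 0.00360), and JAZ5, 1.98-fold (0.99 ± 0.423, adjusted p = 0.0427). JAZ2, JAZ6 and JAZ10 had log2 differences of -0.01, 0.09 and -0.10, with intervals of -0.15 to 0.13, -0.12 to 0.31 and -0.44 to 0.24. The 6 calls among 9 members, 4 higher and 2 lower, stand against 50.2% of all tested genes, 26.1% higher and 24.1% lower, and the members' median was 0.09. JAZ9 was again the member past 2-fold, against 9.22% of all tested genes. With replicate variation at 10%, JAZ1 and JAZ9 were called, where 3956 of all 20716 tested genes were called. JAZ5 was not called by DESeq2 (adjusted p = 0.162) or without the filter on low counts (0.0523), and was lost without phyAB red replicate 1 (0.308), phyB red replicate 1 (0.131) or phyB red replicate 2 (0.121), and JAZ7 without phyAB red replicate 2 (0.0539).

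**Figure D3:**
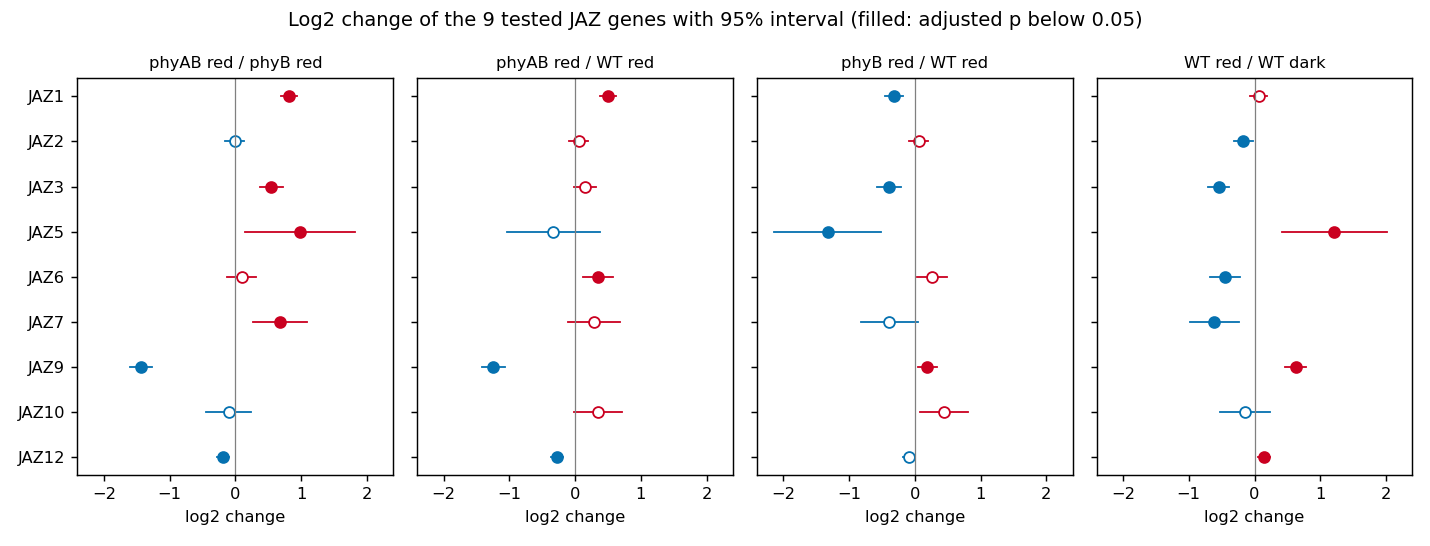
Log2 change of the 9 tested JAZ genes in 4 comparisons, named above each panel with the first group over the second. Bars are 95% intervals, red marks a value above 0 and blue one below, and filled points passed an adjusted p of 0.05. JAZ9 lies at -1.43 and -1.24 in phyAB red against phyB red and WT red, and at 0.62 in WT red against WT dark.

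Against the unlit wild type, red-lit mutants differed in JAZ9 on opposite sides. JAZ9 was 1.75-fold higher in phyB red than in WT dark (log2 change 0.81 ± 0.079 SE, adjusted p = 1.27e-17, edgeR quasi-likelihood test) and 1.54-fold lower in phyAB red than in WT dark (-0.62 ± 0.094, adjusted p = 6.81e-09). JAZ1 was on the other side each time, 1.19-fold lower in phyB red (-0.26 ± 0.068, adjusted p = 0.000591) and 1.47-fold higher in phyAB red (0.56 ± 0.061, adjusted p = 1.07e-14). JAZ3 was lower than in WT dark in both, 1.91-fold in phyB red (adjusted p = 5.73e-20) and 1.31-fold in phyAB red (adjusted p = 6.52e-06). JAZ7 was 1.995-fold lower in phyB red (adjusted p = 6.03e-06) and was not called in phyAB red, where its log2 difference was -0.32. JAZ12 was 1.10-fold lower in phyAB red (adjusted p = 0.0120), a call lost without phyAB red replicate 1 (adjusted p = 0.173). Each mutant thus had 4 of 9 members called, 1 higher and 3 lower. With replicate variation at 10%, JAZ3, JAZ7 and JAZ9 were called in phyB red and JAZ9 alone in phyAB red. Over all 20716 tested genes 4369 were called in phyB red and 2902 in phyAB red at that setting. JAZ1 was then lost in both (adjusted p = 0.469 in phyB red and 0.0571 in phyAB red), and JAZ3 (0.266) and JAZ12 (0.789) were lost in phyAB red. Upper-quartile scaling added JAZ2 (0.0412) and JAZ6 (0.0419) to the members lower in phyB red. The JAZ6 log2 difference there was -0.19 with all libraries. It was -0.33 without WT dark replicate 2 and -0.32 without phyB red replicate 2. In all tested genes 54.6% were called in phyB red, 27.5% higher and 27.1% lower, and 48.2% in phyAB red, 27.2% higher and 20.9% lower. No member was called with a change of at least 2-fold in either mutant (JAZ7 lay just under it in phyB red), against 10.9% of all tested genes in phyB red and 7.25% in phyAB red. Both comparisons share the WT dark libraries, and genotype and light differ together in each.

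The 6 comparisons are all the pairs of the same 4 groups, so their calls are not independent of each other. Between 27.2% and 54.6% of all tested genes were called per comparison. The share of all tested genes called in each of the 6 was not worked out. Across all 6 comparisons JAZ9 was called in each, and in 5 of them under every alternative setting, the 10% variation included. JAZ1, JAZ3 and JAZ7 each kept 1 call of that kind, from 5, 5 and 3. JAZ12 was called in 4, JAZ5 in 3, JAZ6 in 2 and JAZ2 in 1, none of which held under all settings, and JAZ10 in none with edgeR or DESeq2, though its unadjusted p passed in 1, phyB red with WT red.

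Profiles over the 8 libraries were compared by Pearson's r on log2 CPM, as a description over points that share their 4 groups and with no test. JAZ3 and JAZ7 were the most alike pair of members (r = 0.90), then JAZ9 and JAZ12 (r = 0.89) and JAZ2 and JAZ6 (r = 0.83). JAZ9 and JAZ1 ran opposite to each other (r = -0.89). The nearest member to JAZ5 was JAZ1 (r = 0.55) and to JAZ10 was JAZ6 (r = 0.45). Among 3853 non-members whose group means spanned at least 1 log2 unit, SNG1, a sinapoyltransferase gene of phenylpropanoid metabolism, was the closest to JAZ9 (r = 0.9996). SNG1 had 206.5 ± 2.11 CPM in phyAB red, 725.5 ± 8.18 in phyB red, 634.0 ± 6.60 in WT red and 357.8 ± 6.85 in WT dark (mean ± SD, n = 2 each), the group order of JAZ9. AT1G18000 (r = 0.9975) and AT4G38690 (r = 0.9954) came next. JAZ5 was most like MYB12, a regulator of flavonol synthesis, with r = 0.93, at 0.909 CPM in phyAB red, 0.443 in phyB red, 1.06 in WT red and 0.671 in WT dark. Both genes lay near the limit of this depth, and this r is the largest of 3853 values, so a link between them was not tested.

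Of the 3 JAZ family genes outside the 10 loci, 2 had enough reads to test. JAZ4, the close relative of JAZ3 and JAZ9, had 5.31 ± 0.233 CPM in phyAB red, 5.54 ± 0.612 in phyB red, 4.94 ± 0.103 in WT red and 4.67 ± 0.156 in WT dark (mean ± SD, n = 2 each). It was called in none of the 6 comparisons. In the 4 that do not set a mutant against WT dark, its edgeR adjusted p was 0.490 to 0.747. JAZ11, the close relative of JAZ12, had 17.8 CPM in phyAB red, 16.2 in phyB red, 19.4 in WT red and 19.1 in WT dark. It fell in phyB red relative to WT red (log2 change -0.26 ± 0.094 SE, edgeR adjusted p = 0.0285), a call lost without any 1 of the 4 libraries, with DESeq2 and with replicate variation at 10%. JAZ11 was also called lower in phyB red relative to WT dark, a call lost with DESeq2 (adjusted p = 0.089) and with replicate variation at 10%. JAZ13 had 0 to 3 reads per library and was not tested. Of the other proteins with a TIFY motif, PPD2, a brake on leaf growth, fell in WT red relative to WT dark, at 30.5 ± 0.698 CPM against 53.1 ± 0.978 CPM (log2 change -0.80 ± 0.064 SE, edgeR adjusted p = 7.62e-23).

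Of 15 tested genes of jasmonate synthesis, 8 rose in phyAB red and 7 fell in phyB red, each relative to WT red, where 22.3% of all tested genes were higher in phyAB red and 14.1% lower in phyB red. In phyAB red relative to phyB red, 13 of the 15 rose and the other 2 were not called, with a median log2 change of 0.37, where 26.1% of all tested genes were called higher and the median was 0.01. At 10% variation, 3 rose in phyAB red and 0 fell in phyB red relative to WT red, and 5 rose in phyAB red relative to phyB red. Over all 20716 tested genes at that setting, 1433 rose, 312 fell and 2050 rose in these comparisons, in the same order. AOC1, an allene oxide cyclase gene, rose to 5.01 ± 0.510 CPM in phyAB red, against 1.70 ± 0.058 CPM in phyB red (log2 change 1.57 ± 0.232 SE, edgeR adjusted p = 2.57e-09). LOX4, a lipoxygenase gene, had 9.84 ± 1.09 CPM in phyAB red and 4.52 ± 0.219 CPM in phyB red (1.12 ± 0.149, edgeR adjusted p = 5.3e-11). AOS, which makes the oxide that the cyclases use, had 37.9 ± 0.695 CPM in phyAB red and 29.9 ± 0.354 CPM in phyB red (0.34 ± 0.066, edgeR adjusted p = 3.69e-06), and JAR1, which joins jasmonate to isoleucine, had 103.8 CPM in phyAB red and 91.3 CPM in phyB red (0.19 ± 0.039, edgeR adjusted p = 1.97e-05). In phyAB red relative to WT red 1 gene fell, LOX6 (-0.13 ± 0.047, edgeR adjusted p = 0.0172), a call lost under upper-quartile scaling (0.0931), with DESeq2 (0.128) and without WT red replicate 2 (0.517) or phyAB red replicate 1 (0.409). In phyB red relative to WT red the other 8 were not called, and the falls were led by LOX4 (-0.73 ± 0.160, edgeR adjusted p = 8.77e-05) and AOC3 (-0.43 ± 0.128, edgeR adjusted p = 0.00620). With replicate variation at 10% the LOX6 change, these 2 falls and the AOS and JAR1 rises were not called, and AOC3 was also lost with DESeq2 (adjusted p = 0.0512) and without WT red replicate 1 (0.219). In WT red relative to WT dark 3 rose and 6 fell, where 24.1% of all tested genes rose and 22.7% fell. AOC4 fell there by 0.76 on the log2 scale. It was the 1 gene of the list called at 10% variation, where 1102 of all 20716 tested genes fell. OPCL1, a ligase gene of the pathway, had 16.1 ± 1.08 CPM in phyAB red, 9.32 ± 1.10 in phyB red, 8.59 ± 0.353 in WT red and 10.9 ± 1.152 in WT dark, and rose in phyAB red relative to WT red (0.91 ± 0.119, edgeR adjusted p = 3.01e-11). LOX2, the main leaf lipoxygenase of the pathway, was nearly silent, with 24 reads over both phyAB red libraries, 6 in phyB red, 7 in WT red and 1 in WT dark, and was not tested.

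Among 8 tested genes of jasmonate turnover, 5 rose and 1 fell in phyAB red, both relative to WT red, where 22.3% of all tested genes rose and 22.7% fell, and relative to phyB red, where 26.1% rose and 24.1% fell. At 10% variation, 2 rose and 1 fell relative to WT red, and 4 rose and 1 fell relative to phyB red. Over all 20716 tested genes at that setting, 1433 rose and 1307 fell relative to WT red. Relative to phyB red, 2050 rose and 1906 fell. CYP94B1, a hydroxylase of jasmonoyl-isoleucine, was the gene that fell, to 32.5 ± 3.06 CPM in phyAB red, against 84.6 ± 0.478 CPM in phyB red, 85.6 ± 0.443 CPM in WT red and 43.8 ± 1.24 CPM in WT dark. Its log2 change was -1.39 ± 0.053 SE relative to phyB red and -1.41 ± 0.054 relative to WT red (edgeR adjusted p = 1.4e-51 for each). CYP94B3, an enzyme of the same family, rose, to 32.1 ± 0.289 CPM in phyAB red, against 17.0 ± 0.010 CPM in phyB red (0.92 ± 0.082, edgeR adjusted p = 1.19e-19). ST2A, a sulfotransferase of hydroxyjasmonate, had 62.4 ± 1.04 CPM in phyAB red, 39.8 ± 0.216 in phyB red, 17.1 ± 0.970 in WT red and 81.8 ± 2.35 in WT dark. It fell in WT red relative to WT dark (log2 change -2.27 ± 0.064 SE, edgeR adjusted p = 7.69e-67). In that comparison 2 genes of the list rose and 3 fell, where 24.1% of all tested genes rose and 22.7% fell. With 10% variation 1 rose and 1 fell, where 2377 and 1102 of all 20716 tested genes did. CYP94C1, an oxidase gene of the same family as CYP94B3, had 3.603 ± 0.014 CPM in phyAB red and 1.53 ± 0.313 CPM in phyB red (1.27 ± 0.255, edgeR adjusted p = 8.59e-06).

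Genes of the receptor complex and the co-repressors changed by less than 2-fold in every comparison. COI1, the jasmonate receptor, had 55.3 ± 1.21 CPM in phyAB red, 42.2 ± 5.69 in phyB red, 49.1 ± 2.79 in WT red and 64.6 ± 1.11 in WT dark. It fell in WT red relative to WT dark (log2 change -0.40 ± 0.055 SE, edgeR adjusted p = 2.54e-10) and rose in phyAB red relative to phyB red (0.38 ± 0.057, edgeR adjusted p = 7.14e-09). All 5 genes of the receptor and its ligase fell in WT red relative to WT dark, against 22.7% of all tested genes. In phyAB red relative to phyB red 2 rose and 2 fell, against 26.1% and 24.1%. None of the 5 was called at 10% variation in either comparison. NINJA, the adaptor, had 65.8 ± 0.935 CPM in phyAB red, 52.4 ± 3.05 in phyB red, 63.8 ± 4.29 in WT red and 71.7 ± 3.48 in WT dark, and fell in phyB red relative to WT red (-0.27 ± 0.052, edgeR adjusted p = 8.94e-06). TPL, the TOPLESS gene, had 249.5 ± 0.185 CPM in phyAB red, 294.1 ± 1.89 in phyB red, 305.9 ± 5.41 in WT red and 342.5 ± 6.83 in WT dark. Of 8 co-repressor genes 2 rose and 5 fell in WT red relative to WT dark, where 24.1% of all tested genes rose and 22.7% fell. Relative to WT red, 2 fell in phyB red and 3 fell in phyAB red, where 14.1% and 22.7% of all tested genes fell. At 10% variation, 0 of the 8 were called in any of these comparisons. None of these changes in COI1, NINJA or TPL was called with replicate variation at 10%. All 5 receptor and ligase genes also fell in each mutant relative to WT dark, where 27.1% (phyB red) and 20.9% (phyAB red) of all tested genes fell. At 10% variation, COI1 alone was called in phyB red (log2 change -0.60) and ASK2, a gene of the ligase, in phyAB red (-0.56). At that setting 1608 and 721 of all 20716 tested genes fell.

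The factors that JAZ proteins bind did not move as a block. MYC2, the main factor of the pathway, had 176.8 ± 2.04 CPM in phyAB red, 134.9 ± 1.05 in phyB red, 197.5 ± 3.03 in WT red and 209.2 ± 3.53 in WT dark, and fell in phyB red relative to WT red (log2 change -0.55 ± 0.032 SE, edgeR adjusted p = 3.03e-33). MYC3, which acts with MYC2, had 103.3 CPM in phyAB red, 104.2 in phyB red, 131.7 in WT red and 144.3 in WT dark. MYC4, the third of the trio, had 38.5, 42.4, 53.9 and 45.2 CPM in phyAB red, phyB red, WT red and WT dark. Both fell in either mutant relative to WT red (log2 changes -0.34 and -0.35 in phyB red for MYC3 and MYC4, -0.35 and -0.48 in phyAB red). None of these MYC changes was called with replicate variation at 10%. At that setting MYC2 was called lower in phyB red relative to WT dark, where 1608 of all 20716 tested genes fell. Of the 18 tested factors, 2 rose and 7 fell in phyB red relative to WT red, 3 rose and 7 fell in phyAB red relative to WT red, and 5 rose and 4 fell in phyAB red relative to phyB red. Over all tested genes 13.1% rose and 14.1% fell in phyB red and 22.3% rose and 22.7% fell in phyAB red relative to WT red, and 26.1% rose and 24.1% fell in phyAB red relative to phyB red. At 10% variation, 1 rose and 1 fell in each mutant relative to WT red, and 3 rose and 1 fell in phyAB red relative to phyB red. Over all 20716 tested genes at that setting, 313 rose and 312 fell in phyB red relative to WT red. In phyAB red 1433 rose and 1307 fell relative to WT red, and 2050 rose and 1906 fell relative to phyB red. In WT red relative to WT dark 6 of the 18 factors rose and 9 fell, where 24.1% of all tested genes rose and 22.7% fell. At 10% variation 3 rose and 1 fell there, where 2377 and 1102 of all 20716 tested genes did. ICE2, a factor known from cold responses and stomatal development, had 13.7 ± 1.71 CPM in phyAB red, 28.0 ± 0.481 in phyB red, 27.8 ± 1.41 in WT red and 6.03 ± 0.736 in WT dark. It rose in WT red relative to WT dark (2.20 ± 0.108 SE, edgeR adjusted p = 8.04e-41) and fell in phyAB red relative to phyB red (-1.02 ± 0.090, edgeR adjusted p = 4.76e-20). PAP1, an anthocyanin regulator, had 6.78 ± 0.758 CPM in phyAB red, 1.17 ± 0.897 in phyB red, 3.88 ± 0.080 in WT red and 0.918 ± 0.448 in WT dark. It rose in phyAB red relative to phyB red by 2.65 ± 0.254 SE on the log2 scale (edgeR adjusted p = 1.82e-16). GAI, a DELLA repressor of gibberellin responses, had 36.4 ± 0.429 CPM in phyAB red, 42.0 ± 0.566 in phyB red, 24.9 ± 2.23 in WT red and 47.5 ± 2.59 in WT dark.

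Jasmonate response genes were called in both directions in each of 4 comparisons. Of 11 tested genes of the list, 7 rose and 3 fell in WT red relative to WT dark, 1 rose and 6 fell in phyB red relative to WT red, 3 rose and 6 fell in phyAB red relative to WT red, and 9 rose and 2 fell in phyAB red relative to phyB red. Over all tested genes 24.1% rose and 22.7% fell in the first of these, 13.1% and 14.1% in the second, 22.3% and 22.7% in the third and 26.1% and 24.1% in the last. At 10% variation, 6 rose and 2 fell in WT red relative to WT dark, 0 rose and 4 fell in phyB red, 1 rose and 3 fell in phyAB red relative to WT red, and 4 rose and 1 fell in phyAB red relative to phyB red. Over all 20716 tested genes at that setting, 2377 rose and 1102 fell in the first, and 313 and 312 in the second. In the third 1433 rose and 1307 fell, and in the last 2050 rose and 1906 fell. TAT3, an aminotransferase gene induced by jasmonate, had 73 and 47 reads in phyAB red (3.30 and 2.77 CPM), 7 and 11 reads in phyB red (0.436 and 0.494 CPM), 3 and 0 reads in WT red (0.155 and 0 CPM) and 15 and 23 reads in WT dark (0.751 and 1.24 CPM). It was highest in phyAB red and lowest in WT red, and the 4 groups did not overlap. TAT3 rose in phyAB red relative to phyB red (log2 change 2.68 ± 0.374 SE, edgeR adjusted p = 3.11e-10) and relative to WT red (edgeR adjusted p = 3.63e-15), and fell in WT red relative to WT dark (edgeR adjusted p = 8.06e-06). It was also the 1 gene that rose in phyB red relative to WT red (edgeR adjusted p = 0.0183), a call lost with DESeq2 (0.0623), at 10% variation (0.0557) and without WT red replicate 2 (0.214) or phyB red replicate 2 (0.1). RD26, a NAC factor gene of stress responses, had 63.4 CPM in phyAB red, 52.3 in phyB red, 73.5 in WT red and 22.95 in WT dark. VSP2, a vegetative storage protein gene used as a marker of jasmonate signalling, had 15.9 and 17.4 CPM in phyAB red, 12.5 and 13.7 CPM in phyB red, 42.3 and 42.1 CPM in WT red and 16.6 and 14.0 CPM in WT dark. It rose in WT red relative to WT dark (log2 change 1.46 ± 0.082 SE, edgeR adjusted p = 2.25e-35), and fell in phyB red (-1.68 ± 0.084, edgeR adjusted p = 4.26e-39) and in phyAB red (-1.34 ± 0.080, edgeR adjusted p = 1.46e-32) relative to WT red. VSP1, its close copy, had 23.4 and 22.1 CPM in phyAB red, 10.1 and 10.7 CPM in phyB red, 32.4 and 30.6 CPM in WT red and 24.0 and 23.8 CPM in WT dark. VSP1 and VSP2 are near-identical in places, and how their shared reads were assigned is not stated in the labels. The 2 that fell in phyAB red relative to phyB red were CLH1, a chlorophyllase gene (log2 change -1.19 ± 0.127 SE, edgeR adjusted p = 3.08e-15), and RAP2.6, an ERF-family factor (-0.53 ± 0.195, edgeR adjusted p = 0.0165), a call lost with replicate variation at 10%, with DESeq2 (0.0701) and without phyB red replicate 2 (0.0697) or phyAB red replicate 2 (0.083). In that comparison 7 of 11 touch and wound genes also rose and 1 fell, or 6 and 0 at 10% variation.

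**Figure D4:**
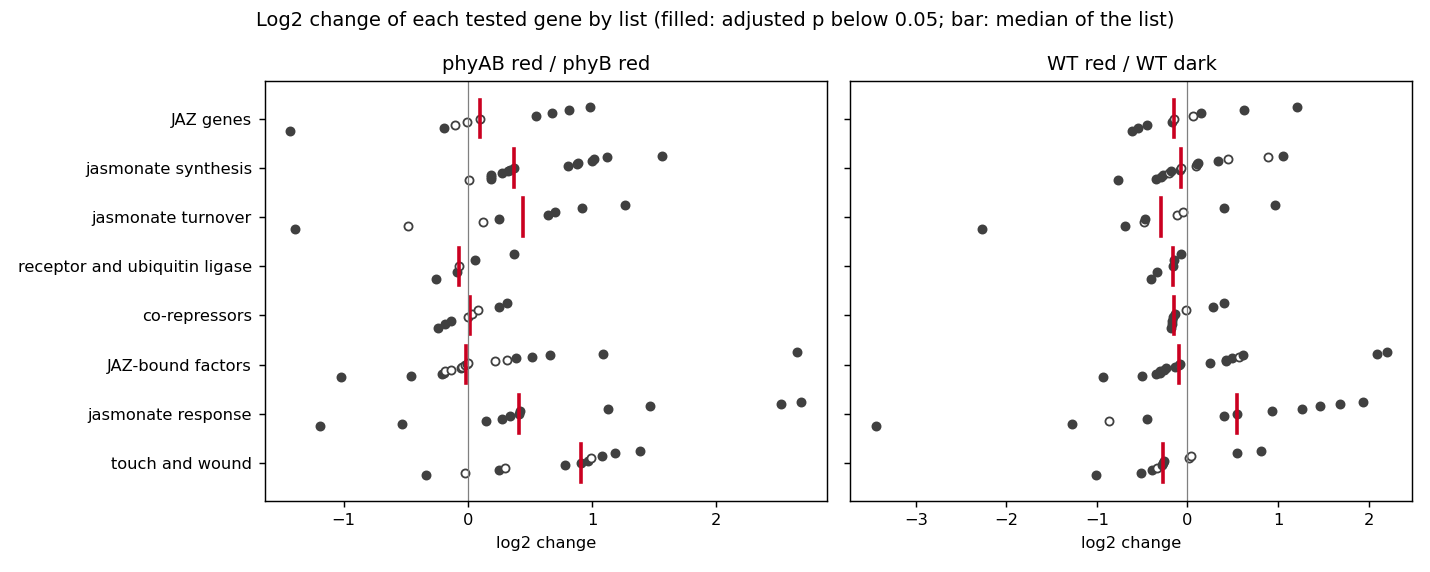
Log2 change of each tested gene of the JAZ family, the pathway lists and the touch and wound markers, in phyAB red relative to phyB red (left) and WT red relative to WT dark (right). Filled points passed an adjusted p of 0.05 and the red bar is the list's median. In the left panel 13 of 15 synthesis genes lie above 0 and were called, while the JAZ genes run between -1.43 and 0.99.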

How the data were processed

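Per the labels' protocols, seedling RNA was DNase-treated, enriched for mRNA by oligo(dT) and made into Illumina libraries. Per the file headers, the authors deposited a read count and an RPKM value for 27416 models, 1 per locus, in each of 8 libraries. The deposited counts are raw whole numbers. The deposited RPKM equal reads divided by model length and library total, with the implied length whole within 0.01 for 100.0% of 24548 models with reads. They were used for levels and shares of genes within a group and for the summed JAZ level of each group, and not in any test. Per the submitters' processing notes the genome build was TAIR10. For aligner, counter and strand setting, the labels give nothing. RefSeq (TAIR10.1) gave names for 26719 loci and the upstream sequences. No members' proteins are shown.

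Counts were fitted with edgeR 4.0.16 in R 4.3.3: TMM scaling, filterByExpr with a minimum count of 10, 1 coefficient per group over all 8 libraries, and a robust two-sided quasi-likelihood test. P-values were adjusted by the Benjamini-Hochberg method over 20716 genes, and a gene was called, or said to have risen or fallen, at an adjusted p below 0.05. SE is the log2 change divided by the square root of F. Intervals cover 95%. Depth was 15926547 to 22116924 reads per library, and count floors reflect counting error alone, as the reads have no molecular identifiers. Alternatives were RLE and upper-quartile scaling, no filter, DESeq2 1.42.0, a replicate block, the compared groups alone, a coefficient of variation fixed at 0.1 on summed libraries, and each library left out. Same-numbered libraries did not deviate together (r -0.0036 to 0.027), so the numbers were not taken as pairs.

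The members, the lists and the tests were chosen with earlier results of these data known. All members are named, with JAZ4, JAZ11, JAZ13, COI1, NINJA, TPL, MYC2, MYC3, MYC4, AOS, LOX2, JAR1, VSP1, VSP2, PHYA and PHYB. The rule for further names took, per list and comparison, up to 2 called genes in each direction with the largest log2 changes. The text prints part of that set, picked with the values known. Likeness used log2 CPM (prior count 2).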

Additional observations from a re-analysis of the deposited data

How the results depend on the processing

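Over 54 member comparisons and their alternatives, 527 of 594 values kept direction and call, 55 lost the call, 6 gained one and 6 changed sign, all 6 in uncalled differences. RLE scaling, the replicate block and the fit of the compared groups alone changed no member call. Under the block 7, 4, 4, 6, 4 and 4 members were called in WT red with WT dark, phyB red with WT red, phyAB red with WT red, phyAB red with phyB red, phyB red with WT dark and phyAB red with WT dark, as without it. The sign changed for JAZ2 in phyAB red with phyB red under upper-quartile scaling (log2 0.02485), without phyB red replicate 2 (0.03923) and without phyAB red replicate 2 (0.02408; lowest without 1 library -0.05091). It changed there for JAZ6 without phyB red replicate 1 (-0.0003674; highest 0.2243) and JAZ10 without phyAB red replicate 2 (0.03268; lowest -0.2822), and for JAZ5 in phyB red with WT dark without WT dark replicate 1 (0.1331; lowest -0.349). With a coefficient of variation fixed at 0.1, WT red with WT dark had 2 members called, 0 lower, and 3479 genes in all. By the same setting, phyB red with WT red had 1 member, 0 higher and 1 lower, and 625 genes; phyAB red with WT red had 1 member, 0 higher and 1 lower, and 2740 genes; phyAB red with phyB red had 2 members, 1 higher and 1 lower, and 3956 genes. It gave 3 members and 4369 genes in phyB red with WT dark, and 1 member, 0 higher and 1 lower, and 2902 genes in phyAB red with WT dark. DESeq2 called 4 members in WT red with WT dark, 1 higher, then 2 in phyB red with WT red, 0 higher, with 3651 genes in all, and 1 higher in phyAB red with WT red. In those comparisons edgeR called 9689, 5633 and 9330 genes, and 10392, 11306 and 9978 in the other 3. Without the filter 0 members were higher in phyB red with WT red. Upper-quartile scaling gave 5 lower in phyB red with WT dark. The causes were not tested, except that the fixed variation assumes a larger spread. Leaving out 1 library gave 4 to 5 members called in WT red with WT dark (1 to 2 higher, 2 to 4 lower), 1 to 3 in phyB red with WT red (0 to 1 higher, 1 to 3 lower), 3 to 4 in phyAB red with WT red (1 to 2 higher) and 5 in phyAB red with phyB red throughout (3 higher). It gave 4 to 5 in phyB red with WT dark and 3 to 4 in phyAB red with WT dark. Where 1 library was left, it was assumed to vary like the other groups. Of 2592 alternatives for called genes of the lists, 254 lost the call and none changed sign. Depth limits JAZ5, JAZ8 and JAZ13 most.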
